A study of Mus musculus with 4 samples.

Results

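The kappa variable genes (Igkv) are the gene segments from which a B cell builds the variable part of an immunoglobulin kappa light chain. They were followed in RNA from leukocytes of the mouse dura mater, the outer meningeal layer, after delivery of vascular endothelial growth factor C (VEGF-C). Members were all rows whose gene symbol begins with Igkv and a number. Of 160 such rows among 55401 genes in the table, 91 held 10 or more reads summed over the 4 libraries and were kept. Wild-type C57BL/6J male mice received adeno-associated virus serotype AAV9 by intra-cisterna magna injection at 4 wk of age. The AAV-mVEGF-C vector carried VEGF-C of the mouse in full length. The control vector, AAV-CTRL, made a secreted Ig fusion of VEGFR-3 domains without VEGF-C binding. Each of the 2 AAV-CTRL and 2 AAV-mVEGF-C libraries was made from total RNA of sorted CD45+ dural cells pooled from 10 to 12 mice, so single mice could not be compared and the spread between libraries is the spread between pools. The question the design addressed was how VEGF-C changes the transcripts of dural immune cells.

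In a developing B cell the RAG recombinase joins 1 Igkv segment to 1 Igkj joining segment, and the joined exon is then spliced to Igkc, the constant exon. Each B cell and its progeny therefore transcribe mainly the light chain gene they rearranged, and plasma cells, the antibody-secreting end stage, do so at very high levels. Igkv use in bulk RNA thus reads out which rearranged chains the cells of a pool carried, weighted by how much RNA each cell made. Fewer cells with a given gene and less of its RNA per cell cannot be told apart in such data. Segments are named by subfamily and by position, so Igkv6-23 is a member of subfamily 6.

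The 91 genes lay on chromosome 6 of mouse genome build GRCm38, between 67555497 and 70704177, a stretch of 3148.68 kb that ends just before Igkj1 at chr6:70722562-70722599. Igkc lies at chr6:70726435-70726966 on the plus strand. On that strand were 34 of the genes, and 57 lay on the opposite strand. The annotation (GENCODE M21) listed 88 of the kept genes as V genes and 3 as V pseudogenes, Igkv4-60, Igkv4-73 and Igkv4-77. The 69 rows left out held 83.03 estimated reads together, 37 of them were at 0 in all libraries, and 57 were pseudogenes. Just inside the limit of 10 reads were Igkv3-3 with 11 reads and Igkv12-38 and Igkv4-51 with 13 each. Just outside were Igkv4-54 with 8.01, Igkv9-119 with 7 and Igkv12-40 with 5.

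To show the germline part of the antigen-binding loop, V exon ends are given for genes among the leading 3 of a library and for Igkv8-30, the gene with the smallest p. The sequences below are the last bases of the V exon from GENCODE M21 transcripts (GRCm38), 5′ to 3′ on the coding strand. They start shortly before the conserved cysteine codon, and capitals mark the germline part of the third complementarity-determining region (CDR3), the loop that contacts antigen and is completed by joining. The exons lie at chr6:70260409-70260706 (minus strand) for Igkv6-23, chr6:70215660-70215957 (plus) for Igkv6-25, chr6:68631963-68632260 (minus) for Igkv10-96, chr6:68736297-68736594 (minus) for Igkv19-93, chr6:68939770-68940067 (plus) for Igkv13-84, chr6:68437628-68437925 (plus) for Igkv15-103, chr6:68121515-68121827 (plus) for Igkv1-117 and chr6:70117061-70117376 (minus) for Igkv8-30.
Igkv6-23: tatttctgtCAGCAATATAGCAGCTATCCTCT
Igkv6-25: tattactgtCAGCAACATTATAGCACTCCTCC
Igkv10-96: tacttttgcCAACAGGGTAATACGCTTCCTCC
Igkv19-93: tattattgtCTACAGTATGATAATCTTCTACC
Igkv13-84: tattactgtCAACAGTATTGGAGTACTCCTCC
Igkv15-103: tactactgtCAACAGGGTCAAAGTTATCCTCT
Igkv1-117: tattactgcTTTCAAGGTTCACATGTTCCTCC
Igkv8-30: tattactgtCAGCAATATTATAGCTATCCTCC

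Germline CDR3 parts were not always unique to a gene. The capitals shown for Igkv6-23 were identical in Igkv6-13, those of Igkv6-25 in Igkv8-24, a gene of another subfamily, and those of Igkv13-84 in Igkv13-85. A single end was shared by Igkv4-59, Igkv4-68, Igkv4-71, Igkv4-72 and Igkv4-73.

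Igkv exons resemble each other closely, which bears on how reads could be assigned. The median identity of a gene's V exon to its nearest relative among the kept genes was 95% (range 75.2 to 99.0%), and 87 of 91 nearest relatives were in the same subfamily. A stretch of 100 bases was shared with another gene by 43 of 91 genes, and 59 had estimated read values with decimals in at least 1 library. The closest pair was Igkv5-43 and Igkv5-45, with 3 mismatches in 298 bases, so their separate levels are uncertain. Igkv13-84 and Igkv13-85, both described below, differed at 9 of 298 bases and their last 193 bases were identical. Their V exons are shown with the differing bases in capitals, 5′ to 3′ on each gene's own strand (Igkv13-85 at chr6:68930269-68930566, minus strand).
Igkv13-84: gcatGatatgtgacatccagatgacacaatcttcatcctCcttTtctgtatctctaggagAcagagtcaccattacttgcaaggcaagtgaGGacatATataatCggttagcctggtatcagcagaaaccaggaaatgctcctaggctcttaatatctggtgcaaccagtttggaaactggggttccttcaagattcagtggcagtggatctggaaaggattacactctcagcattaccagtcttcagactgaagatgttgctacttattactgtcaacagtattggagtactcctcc
Igkv13-85: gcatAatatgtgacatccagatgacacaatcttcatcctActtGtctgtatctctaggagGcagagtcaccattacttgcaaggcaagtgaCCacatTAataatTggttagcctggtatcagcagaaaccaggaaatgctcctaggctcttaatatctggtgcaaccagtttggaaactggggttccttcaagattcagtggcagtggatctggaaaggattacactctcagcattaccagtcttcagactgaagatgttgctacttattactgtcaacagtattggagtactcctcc

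Igkv6-25 and Igkv6-23, the leading genes of the AAV-CTRL libraries, were further apart and differed at 19 of 298 bases. Capitals again mark the differences.
Igkv6-25: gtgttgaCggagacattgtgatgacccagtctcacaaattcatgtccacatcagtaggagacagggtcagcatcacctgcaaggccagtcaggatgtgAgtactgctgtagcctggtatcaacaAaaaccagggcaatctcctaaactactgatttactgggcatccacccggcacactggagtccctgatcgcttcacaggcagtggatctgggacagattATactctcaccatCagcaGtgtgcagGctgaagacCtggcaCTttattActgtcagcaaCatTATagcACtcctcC
Igkv6-23: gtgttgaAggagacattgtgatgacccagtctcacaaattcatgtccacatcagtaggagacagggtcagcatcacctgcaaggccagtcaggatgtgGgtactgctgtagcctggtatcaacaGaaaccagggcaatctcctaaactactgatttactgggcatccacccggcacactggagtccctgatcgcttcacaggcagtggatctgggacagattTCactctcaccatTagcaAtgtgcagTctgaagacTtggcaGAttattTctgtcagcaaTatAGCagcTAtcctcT

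Reads assigned to genes numbered 32520709 to 46409700 per library. AAV-CTRL 1 stood apart in that 20993 genes had a read, against 29230 to 37535 in the other libraries, although it had the most assigned reads. The leukocyte marker Ptprc, which encodes CD45, was at 946 to 1151 CPM (reads per 1000000 assigned reads, after TMM scaling) with the groups overlapping. Of 10 B cell markers all were detected in each library, and their summed level was 799 CPM in AAV-CTRL 2 against 348 to 409 CPM in the other libraries. Fibroblast markers, which a CD45+ gate should leave out, were also present, with summed levels of 653 and 1042 CPM in AAV-CTRL, against 354 and 550 CPM in AAV-mVEGF-C.

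Kappa variable gene RNA took a larger share of the AAV-mVEGF-C libraries. Igkv genes held 0.0359% of all reads in AAV-CTRL 1 and 0.0640% in AAV-CTRL 2, against 0.161 and 0.153% in the AAV-mVEGF-C libraries. The groups did not overlap, and the means were 0.050% ± 0.0199 and 0.157% ± 0.00543 (SD, n = 2), a ratio of 3.14. The difference between the means was larger than either SD. An exact two-sided permutation test gave p = 0.333, the smallest value that 2 against 2 libraries allow. Wilson 95% intervals, which cover counting error only, ran from 0.0354 to 0.0365%, 0.0632 to 0.0649%, 0.160 to 0.162% and 0.152 to 0.155% in that order. Without AAV-CTRL 1, the library with the fewest genes detected, the difference between the means was 0.0930 percentage points in place of 0.107. On the TPM scale, which corrects for transcript length, the shares were 0.166, 0.261, 0.548 and 0.587% in the same order, a ratio of 2.66.

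The larger share did not rest on the gene that led each library. Without that gene the ratio was 3.45, with library shares of 0.0310, 0.0477, 0.146 and 0.125%. Restricted to the 48 genes that shared no stretch of 100 bases with another gene, it was 3.47. Restricted to the 32 genes whose read values were whole in each library, it was 3.71.

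Igkv RNA relative to Igkc RNA varied far less. Summed Igkv TPM per Igkc TPM was 0.980 and 1.03 in the AAV-CTRL libraries and 1.09 and 1.15 in the AAV-mVEGF-C libraries (1.0 ± 0.0339 and 1.12 ± 0.0446, SD, n = 2; exact permutation p = 0.333). These groups did not overlap, but they differed by a ratio of 1.11 where the Igkv share itself differed by 2.66 on the same scale. Among all immunoglobulin gene reads, Igkv genes took 11.8, 11.3, 12.9 and 13.0%, a ratio of 1.13 without overlap (exact permutation p = 0.333). On the TPM scale these shares were 27.4, 26.5, 26.9 and 29.5% and the groups overlapped (exact permutation p = 0.667).

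**Figure D1:**
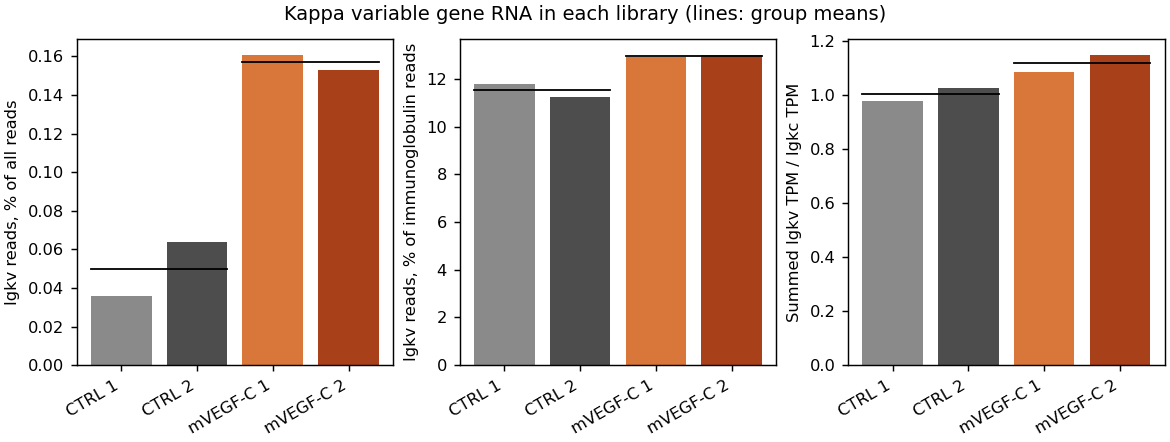
Kappa variable gene RNA in the 4 libraries as bars, with group means as lines: Igkv reads as a percentage of all reads, as a percentage of immunoglobulin reads, and summed Igkv TPM per Igkc TPM. The AAV-mVEGF-C libraries stand at 0.161 and 0.153% of all reads against 0.0359 and 0.0640% in AAV-CTRL, while the other panels differ by ratios of 1.13 and 1.11.

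Each library had its own leading genes. Shares here are of the library's summed Igkv TPM. In AAV-CTRL 1 the leading genes were Igkv6-23 (13.4%), Igkv10-96 (8.91%) and Igkv14-126 (6.57%). In AAV-CTRL 2 they were Igkv6-25 (24.2%), Igkv4-59 (7.94%) and Igkv10-96 (6.05%). AAV-mVEGF-C 1 was led by Igkv19-93 (9.23%), Igkv4-61 (5.13%) and Igkv10-96 (5.04%), and AAV-mVEGF-C 2 by Igkv13-84 (20.7%), Igkv15-103 (9.80%) and Igkv1-117 (4.25%). Igkv10-96 was thus among the leading 3 in 3 of 4 libraries, and the gene at the top differed in all 4.

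Several leading genes were almost private to a library. Igkv6-25 had 1 read in AAV-CTRL 1 and 5455 in AAV-CTRL 2, then 193 and 11.1 in the AAV-mVEGF-C libraries. The groups overlapped, and its estimated log2 fold change of -4.88 (SE 2.44) ran from -7.80 to 6.70 when each library was left out in turn, with the value above 0 obtained without AAV-CTRL 2. Igkv13-84 had 186 and 11.3 reads in AAV-CTRL, against 503 and 9312 in AAV-mVEGF-C. Both of the latter were above both controls, but almost all of its reads came from AAV-mVEGF-C 2. Igkv4-61 stood at 0.268 and 6.19 CPM in the controls, and at 65.0 and 4.76 CPM after AAV-mVEGF-C. Its groups overlapped, and AAV-mVEGF-C 1 was far above the rest. More widely, a single library held over 50% of a gene's summed CPM for 66 of 91 genes and over 75% for 21. Of the 66, 5 and 11 lay in the AAV-CTRL libraries, against 34 and 16 in the AAV-mVEGF-C libraries, where Igkv RNA as a whole was higher. The share over all genes was not computed.

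Other leading genes were present at substantial levels in all libraries. Igkv6-23 stood at 51.0 and 35.6 CPM in AAV-CTRL, against 64.1 and 48.7 CPM in AAV-mVEGF-C, so the groups overlapped (log2 fold change 0.38, SE 0.24). Its share of Igkv TPM was 13.4, 5.72, 3.96 and 3.01%, lower in both AAV-mVEGF-C libraries than in both controls. Igkv10-96 stood at 31.9 and 35.3 CPM in AAV-CTRL, against 76.1 and 58.4 CPM in AAV-mVEGF-C, without overlap (log2 fold change 1.0, SE 0.19). Igkv19-93 stood at 21.3 and 28.8 CPM against 141 and 58.3 CPM, also without overlap (1.99, SE 0.42).

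**Figure D2:**
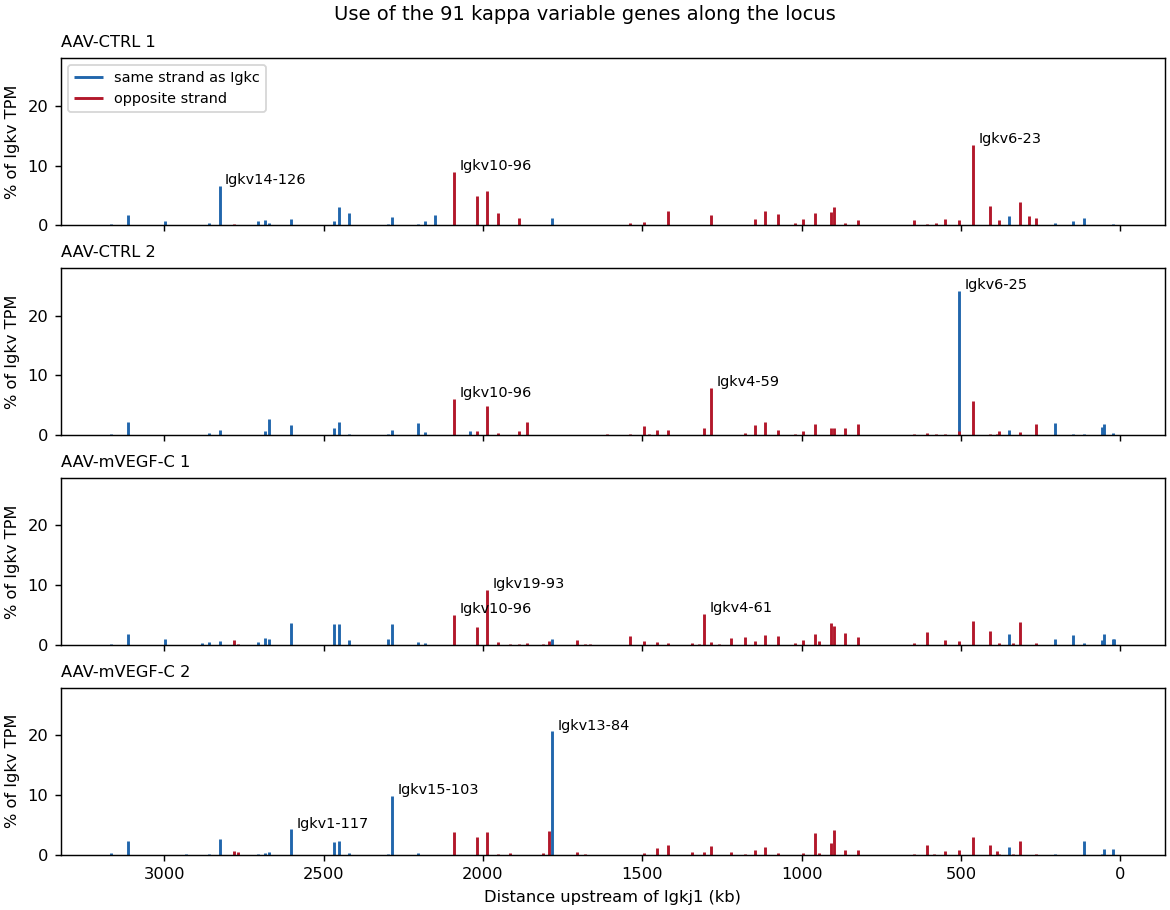
Share of summed Igkv TPM (y axis, %) held by each of the 91 genes in each library, drawn at the gene's distance upstream of Igkj1 (x axis, kb) and coloured by strand, with the leading 3 genes named. Igkv6-25 holds 24.2% in AAV-CTRL 2 and Igkv13-84 holds 20.7% in AAV-mVEGF-C 2, and neither stands out in the other library of its group.

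Genes from along the whole locus were used. The 32 genes within 1000 kb of Igkj1 held 41.7 and 49.8% of Igkv TPM in AAV-CTRL and 38.3 and 28.8% in AAV-mVEGF-C. The 32 genes between 1000 and 2000 kb held 21.3 and 26.8% against 28.7 and 38.0%, and the 27 genes beyond 2000 kb held 37.0 and 23.3% against 33.0 and 33.1%. The first range did not overlap between groups and was lower in AAV-mVEGF-C, the second did not overlap and was higher, and the third overlapped. Single genes decided both separations. Without Igkv6-25 the first range held 41.7, 33.9, 38.1 and 28.8% of the remaining Igkv TPM and the second 21.3, 35.4, 28.8 and 38.1%, both with overlap. Without Igkv13-84 the second range held 20.3, 26.8, 28.1 and 21.9%, also with overlap. Genes on the strand of Igkc held 28.5, 47.9, 34.4 and 51.7%, which differed more within each group than between the group means.

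Evenness of use was measured first by the effective number of genes. This value, the inverse Simpson index of TPM shares, equals the number of genes that would give the same concentration if used equally. It was 21.3 and 12.3 in AAV-CTRL, against 32.4 and 14.5 in AAV-mVEGF-C (16.8 ± 6.34 and 23.4 ± 12.7, SD, n = 2), with overlap and an exact permutation p of 0.667, so the libraries of each group differed by more than the group means. Without the leading gene of each library it was 25.8 and 24.9 against 36.9 and 23.8, also with overlap, and only the AAV-mVEGF-C libraries were then far apart. The leading 10 genes held 55.2 and 60.1% in AAV-CTRL and 44.9 and 60.0% in AAV-mVEGF-C. Reaching 90% of Igkv TPM took 35 and 33 genes in AAV-CTRL, against 44 for the first AAV-mVEGF-C library and 30 for the second. More than 3 reads were present for 63, 81, 83 and 75 of the 91 genes. These counts overlapped between groups (exact permutation p = 0.667), and AAV-CTRL 1, with 24 genes at 0 reads, was lowest.

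**Figure D3:**
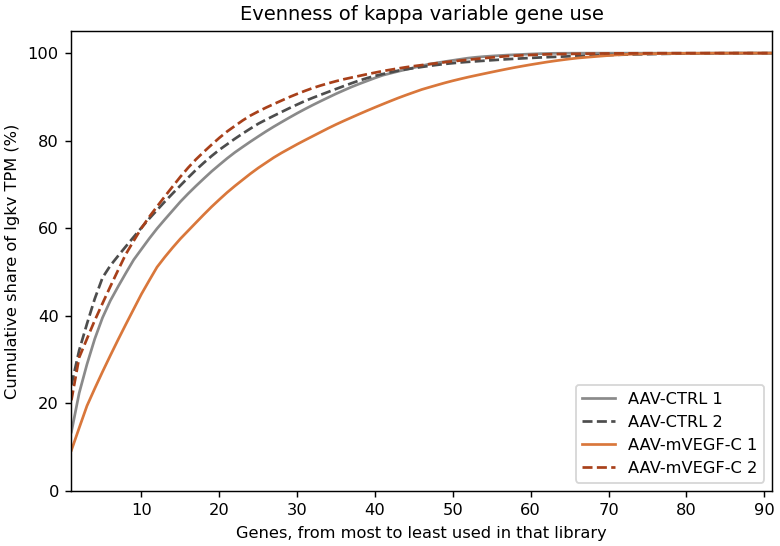
Cumulative share of Igkv TPM (y axis, %) against the number of genes ranked from most to least used in each library (x axis). AAV-mVEGF-C 1 rises most slowly, with 44.9% in its leading 10 genes, and the other 3 libraries lie close together at 55.2 to 60.1%.

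Composition differed widely between libraries of the same group. Between the 2 AAV-CTRL libraries 51.2% of Igkv TPM would have to move to another gene for their profiles to match, and between the 2 AAV-mVEGF-C libraries 41.9%. Between groups the value ran from 39.4 to 60.1%, a range that includes both. Spearman's rho over the 91 genes was 0.598 and 0.720 within groups and 0.532 to 0.633 between them, so by this measure the AAV-mVEGF-C libraries were the most alike pair. It is given as a description since genes are not independent replicates.

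By subfamily, Igkv6 held the largest share in both AAV-CTRL libraries. Igkv6 (9 genes) held 22.4 and 33.6% of Igkv TPM in AAV-CTRL and 10.6 and 7.68% in AAV-mVEGF-C, the 1 subfamily of 17 that was lower without overlap. Its 8 genes other than Igkv6-25 held 22.4, 9.41, 10.3 and 7.66% of all Igkv TPM, and the groups overlapped. AAV-CTRL 1 stayed above both AAV-mVEGF-C libraries. Because the total still included Igkv6-25, 24.2% of it in AAV-CTRL 2, the overlap cannot show that the separation rested on that gene. Mean CPM of Igkv6 differed by a ratio of 0.96 between groups, and by 2.02 without Igkv6-25. Igkv4, the largest subfamily with 27 genes, held 13.0 and 19.0% against 17.4 and 9.74%, with overlap. Igkv10 (3 genes), ahead of Igkv4 in AAV-CTRL 1, held 13.8 and 7.45% against 8.12 and 6.78%, also with overlap.

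The subfamilies whose shares were higher without overlap were Igkv1, Igkv5, Igkv13 and Igkv15, and the other 12 overlapped. Igkv15, which is Igkv15-103 alone, held 1.37 and 0.873% against 3.46 and 9.80%. Igkv13, the pair Igkv13-84 and Igkv13-85, held 1.33 and 0.139% against 1.61 and 24.6%. The difference between the group means of Igkv13 thus rested on AAV-mVEGF-C 2. Igkv1 (8 genes, 8.05 and 8.67% against 11.2 and 9.04%) and Igkv5 (4 genes, 4.91 and 3.59% against 6.09 and 5.44%) were shifted by less. Igkv5 overlapped without Igkv5-43, its most abundant gene, at 1.90 and 2.49% against 2.98 and 1.23%. Igkv1 was led by Igkv1-117 in reads and by Igkv1-110 in TPM. It overlapped without the former, at 7.01 and 7.05% against 7.45 and 4.79%, but not without the latter, at 4.95 and 6.53% against 7.71 and 6.79%. Igkv13 without Igkv13-84 still separated the groups, at 0.0838 and 0.0784% against 0.703 and 3.90%. In these checks the total of Igkv TPM still included the gene left out. Exact permutation p-values could not go below 0.333, and all 17 were 1.0 after Benjamini-Hochberg adjustment. The effective number of subfamilies was 8.56 and 5.71 in AAV-CTRL, against 10.7 and 8.80 in AAV-mVEGF-C (exact permutation p = 0.333). Without the leading gene of each library it was 10.1, 8.08, 9.73 and 11.5, and the groups overlapped.

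**Figure D4:**
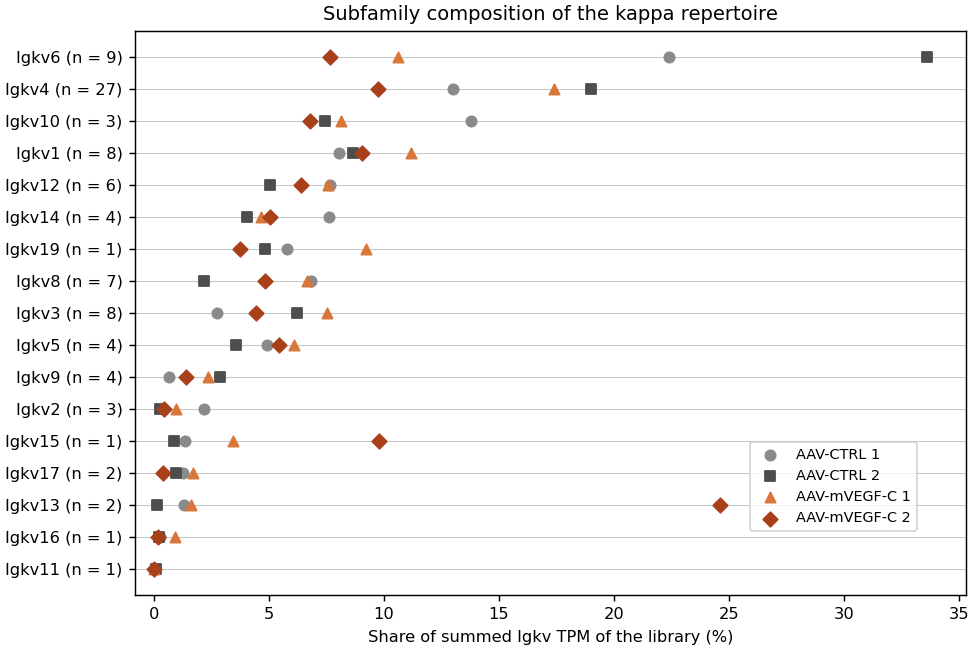
Share of summed Igkv TPM (x axis, %) held by each of the 17 subfamilies (y axis, with the number of genes kept), with a point for each library. The AAV-CTRL points of Igkv6 lie right of both AAV-mVEGF-C points, and the AAV-mVEGF-C 2 points of Igkv13 (24.6%) and Igkv15 (9.80%) lie far right of the rest.

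As levels rather than shares of kappa RNA, more genes were higher than lower in AAV-mVEGF-C. CPM was higher in both AAV-mVEGF-C libraries than in both AAV-CTRL libraries for 41 of 91 genes (45.1%), against 18.8% of all genes with 10 or more summed reads. It was lower without overlap for 5 genes (5.49%), against 13.2% of all genes, and it overlapped for 45. The 5 lower genes, named after their values were seen, were Igkv12-98, Igkv12-89, Igkv8-28, Igkv6-14 and Igkv4-51. Of these Igkv12-98 stood at 5.82 and 0.378 CPM in AAV-CTRL, against 0.0256 and 0.252 CPM in AAV-mVEGF-C, so most of its signal lay in AAV-CTRL 1. The separated higher genes came from all subfamilies but Igkv11, among them 10 of 27 Igkv4 genes, 5 of 7 Igkv8 genes, 4 of 8 Igkv1 genes and 3 of 6 Igkv12 genes.

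In the fit over all genes, 76 of the 91 genes passed the filter on low counts, 5 of them through the AAV-mVEGF-C libraries alone and 1 through the AAV-CTRL libraries alone. Their estimated log2 fold changes were above 0 for 64, where 50.4% of all genes tested were above 0, and below 0 for 12, with a median of 2.04 (also 2.04 with Igkv4-63, at 0 reads in both controls, set at its lower bound), against 0.0034 over all 19806 genes tested. Without AAV-mVEGF-C 1, 52 of 80 were above 0 with a median of 1.12, against -0.02 over all genes in that fit. With edgeR's quasi-likelihood test and Benjamini-Hochberg adjustment, 0 of 76 passed 0.05 (0% of all genes passed), and the smallest adjusted p was 0.331. At an unadjusted p under 0.05, 36 were higher (47.4%), against 1.46% of all genes tested, and 1 was lower, Igkv12-98, against 1.18%. Genes that pass a filter through their high group alone have to differ, and among those counted at this p these were 4 higher genes, Igkv9-123, Igkv4-90, Igkv4-79 and Igkv4-63, and Igkv12-98, the lower gene. Igkv14-130 also passed through AAV-mVEGF-C alone but did not reach this p. Of the 70 Igkv genes that reached the minimum in both groups, 59 were above 0 (49.7% of all such genes) with a median of 1.97, 32 were higher at an unadjusted p under 0.05 (1.31% of all such genes) and 0 lower (1.18%). DESeq2, the study's tool, gave an adjusted p under 0.05 for 27 of 80 genes, 25 higher and Igkv12-98 and Igkv6-14 lower, where 0.313% of all genes were called higher and 0.0758% lower. Among these calls, Igkv9-123, Igkv4-90, Igkv4-79, Igkv4-63 and Igkv4-78 reached the count minimum in AAV-mVEGF-C alone. Igkv12-98 and Igkv6-14 reached it in AAV-CTRL alone, so the limit given for edgeR applies to these calls too. Taking the experiment number of the labels as a block in edgeR, 5 genes passed (0.0555% of all genes), and 20 with crossed numbers (0.273%).

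**Figure D5:**
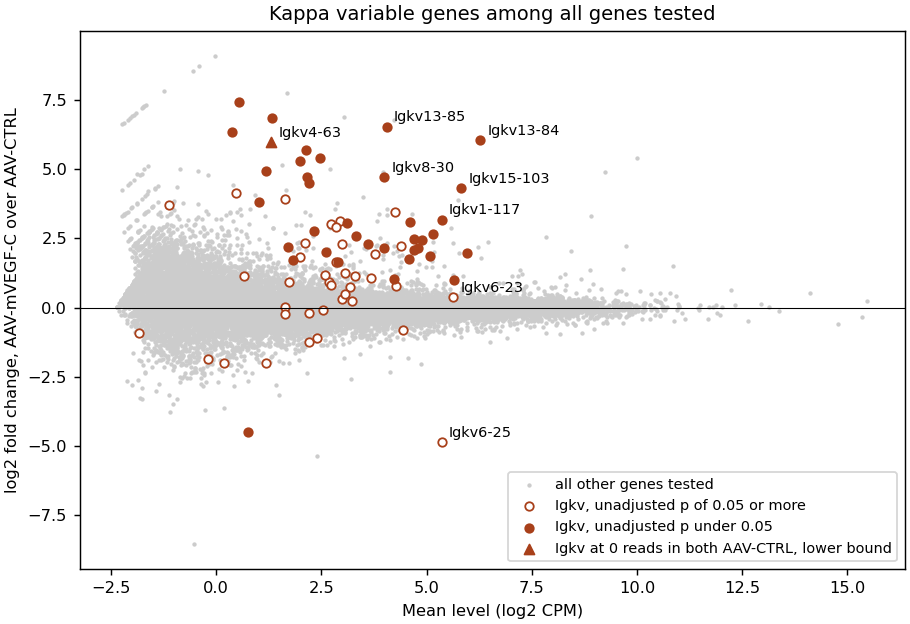
Log2 fold change of AAV-mVEGF-C over AAV-CTRL (y axis) against mean level (x axis, log2 CPM) for all genes tested, with Igkv genes in colour, filled where the unadjusted edgeR p was under 0.05 and drawn as a triangle at its lower bound for Igkv4-63, which had 0 reads in both AAV-CTRL libraries. Of the 76 Igkv genes 64 lie above 0, and Igkv6-25 is the lowest at -4.88.

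Igkv8-30 had the smallest p of the kappa genes. It had 32.1 and 57 reads in AAV-CTRL, against 1332 and 862 in AAV-mVEGF-C, which is 0.716 and 1.66 CPM against 34.1 and 27.2 CPM. The groups were far apart relative to the spread within either. Its log2 fold change was 4.71 (SE 0.44), with an adjusted p of 0.331 in edgeR and 1.69e-30 in DESeq2.

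The other genes with small p-values had the same form. Igkv15-103 had 240 and 191 reads in AAV-CTRL, against 2121 and 5146 in AAV-mVEGF-C, for a log2 fold change of 4.31 (SE 0.54). Igkv1-117 had 211 and 402 reads against 2674 and 2516 (3.18, SE 0.43). Igkv5-43 stood at 12.0 and 7.15 CPM against 51.6 and 71.1 CPM (2.67, SE 0.31). In each of these both AAV-mVEGF-C libraries were above both controls, and for Igkv15-103 they also lay far apart from each other. Igkv4-80 (4.73, SE 0.50), Igkv9-124 (4.50, SE 0.62), Igkv12-44 (2.45, SE 0.34), Igkv6-17 (2.15, SE 0.26) and Igkv1-110 (1.87, SE 0.25) also separated the groups. Igkv4-80 and Igkv9-124 were low in the controls, at 0.268 and 0.378 CPM and at 0.582 and 0.175 CPM, against 10.9 and 6.34 CPM and 10.1 and 7.48 CPM. Igkv12-44 stood at 10.2 and 8.0 CPM against 65.3 and 34.5 CPM, Igkv6-17 at 5.84 and 5.76 CPM against 30.6 and 21 CPM, and Igkv1-110 at 13.9 and 15.5 CPM against 64.5 and 42.5 CPM. For these 8 genes, adjusted p-values by edgeR's quasi-likelihood test lay between 0.331 and 0.416. By DESeq2 the adjusted p was 1.53e-06 for Igkv15-103 and 2.33e-08 or less for the other 7.

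The near-identical pair Igkv13-84 and Igkv13-85 did not keep a fixed ratio. Igkv13-85 had 12.5 and 14.7 reads in AAV-CTRL, against 389 and 1758 in AAV-mVEGF-C, for a log2 fold change of 6.55 (SE 0.97, edgeR adjusted p = 0.497). Igkv13-84 had 14.9 and 0.769 reads for each of Igkv13-85 in the AAV-CTRL libraries, then 1.29 and 5.30 in the AAV-mVEGF-C libraries. Because the exons share their last 193 bases, reads that lie wholly within that stretch cannot be told apart, and the level of each gene is uncertain. For Igkv5-43 and Igkv5-45 the ratio was 20.3, 4.25 and 14.4 in the 3 libraries where Igkv5-45 had a read.

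A few genes were near absent from the AAV-CTRL libraries. Igkv4-63 had 0 reads in both and 140 and 196 reads in AAV-mVEGF-C. Igkv9-123 had 0 and 3 reads against 130 and 206, Igkv4-90 had 0 and 1 against 82 and 113, and Igkv4-79 had 0 and 2 against 137 and 44. Taking 3 reads per library as the floor, Igkv4-63 was at least 63.3-fold higher in AAV-mVEGF-C. For the others the ratio of pooled CPM was 125 for Igkv9-123 (exact 95% interval 42.5 to 610), 218 for Igkv4-90 (38.7 to 8650) and 101 for Igkv4-79 (27.6 to 842). These intervals cover counting error only. These genes were picked by a rule, 3 reads or fewer in both libraries of a group and 30 or more in both of the other. They therefore have to differ. No kappa gene met the rule in the other direction, and the share of all genes that met it was not computed. The AAV-CTRL libraries also held fewer Igkv reads in all, 16678 and 21346 against 61231 and 49835.

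Igkc, the exon to which each rearranged Igkv gene is spliced, was higher in AAV-mVEGF-C without overlap. It stood at 782 and 1164 CPM in AAV-CTRL, against 2760 and 2696 CPM in AAV-mVEGF-C, for a log2 fold change of 1.49 (SE 0.23). The adjusted p of Igkc was 0.548 in edgeR and 3.1e-08 in DESeq2. The Igkj segments, which are very short exons, had 22 reads or fewer in each library and were not tested. Of the lambda light chain list, the alternative light chain locus, 6 of 9 genes were tested and 5 had estimates above 0, where 50.4% of all genes had estimates above 0. At an unadjusted p under 0.05, 2 were higher, against 1.46% of all genes: Iglc1 (1.13, SE 0.29) and Iglv1 (1.34, SE 0.32). The median of the list was 0.86 on the log2 scale, but 0.37 with 4 of 6 above 0 without AAV-CTRL 1, and 0 of the 6 passed 0.05 after Benjamini-Hochberg adjustment in edgeR. By DESeq2 the adjusted p was 0.0192 for Iglc1 and 0.00915 for Iglv1, and above 0.05 for the other genes tested in the list.

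Recombination and pre-B genes, which act before light chain expression, mostly had lower estimates. Of 7 tested, 1 was above 0, and the median log2 fold change was -0.68. Without AAV-CTRL 2, 4 of 7 were higher and the median was 0.33, in a fit where 57.9% of all genes were above 0 with a median of 0.13. Rag1, the catalytic subunit of the recombinase, stood at 14.7 and 43.1 CPM in AAV-CTRL, against 2.97 and 8.52 CPM in AAV-mVEGF-C (-2.33, SE 0.67). Rag2, its partner subunit, stood at 3.67 and 1.89 CPM against 0.512 and 1.29 CPM (-1.63, SE 0.69). Dntt, the polymerase that adds bases at the joins, stood at 11.0 and 15.0 CPM against 7.53 and 10.6 CPM (-0.52, SE 0.30). These 3 were lower without overlap, as were 13.2% of all genes with 10 or more summed reads. By edgeR's quasi-likelihood test their unadjusted p-values were 0.0125, 0.0557 and 0.132 in that order. Vpreb1, Vpreb3 and Igll1, parts of or relatives of the surrogate light chain, were lowest in AAV-CTRL 1 and highest in AAV-CTRL 2. Transcription factors of the octamer and kappa enhancers, which drive light chain transcription, numbered 11, of which 5 were above 0 and 0 had an unadjusted edgeR p under 0.05 (median -0.08). Without AAV-CTRL 2, 10 of 11 were higher with a median of 0.33, against 57.9% and 0.13 over all genes in that fit.

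Beside the Igkv genes, estimates were mostly above 0 for plasma cell markers and below 0 for fibroblast markers, and none of either list passed 0.05 after adjustment in edgeR. The sign of the B cell marker estimates rested on AAV-CTRL 2, and that of the pre-B cell markers did so in part. Over all genes tested, 50.4% had estimates above 0, and at an unadjusted p under 0.05, 1.46% were higher and 1.18% lower. Of 10 plasma cell markers 9 had estimates above 0 and 3 had an unadjusted edgeR p under 0.05, with a summed level of 573 and 613 CPM in AAV-CTRL, against 1054 and 1064 CPM in AAV-mVEGF-C. Jchain, which links the units of secreted IgA and IgM, was the most abundant of them at 261 and 269 CPM against 672 and 680 CPM (log2 fold change 1.35, SE 0.16). Its adjusted p was 0.331 in edgeR and 1.81e-09 in DESeq2, and no other plasma cell marker passed 0.05 in DESeq2. Of 10 B cell markers 1 had an estimate above 0, and the median was -0.46. Their summed level was 348 and 799 CPM against 375 and 409 CPM, and without AAV-CTRL 2, the library with the highest sum, 9 of 10 were higher with a median of 0.21. In that fit, where AAV-CTRL 1 is the sole control, 57.9% of all genes were above 0 with a median of 0.13. Ms4a1, which encodes CD20, stood at 52.8 and 108 CPM against 47.0 and 43.8 CPM (-0.82, SE 0.33). The 6 pre-B cell markers, with summed levels of 31.2 and 82.9 CPM against 14.6 and 28.8 CPM, all had estimates below 0 and 1 had an unadjusted edgeR p under 0.05. Without AAV-CTRL 2, Rag1, Rag2 and Dntt were still lower and the other 3 of the 6 were higher. All 6 fibroblast markers had estimates below 0, also when any library was left out, and 4 had an unadjusted edgeR p under 0.05. Of 5 endothelial markers 2 were above 0 and 0 had an unadjusted edgeR p under 0.05. The part of these cell types in the Igkv levels was not tested.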

How the data were processed

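RNA of sorted dural CD45+ cells was sequenced as 4 libraries from a stranded total RNA kit. FastQC, Trimmomatic, DRAGEN, Picard and mm10 are named in the submitters' processing notes, and whether strand was used in counting is not given in the sources used here. The authors deposited estimated counts per gene without normalization (8.18% of values had decimals) and TPM values that sum to 1000000 per library. Estimated counts were rounded for the fits. Gene identifiers matched GENCODE M21 (GRCm38), with the same version, for 54349 of 55401 genes, and V exon sequences and positions were taken from it. Identity was scored by global alignment in Biopython 1.88.

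Groups came from the sample labels. Members and gene lists were chosen with earlier results of these data known. Levels per gene are CPM on library sizes scaled by TMM, and shares between genes use TPM. The main fit was edgeR 4.0.16 (R 4.3.3), quasi-likelihood test on the 19806 genes that passed filterByExpr at its defaults, with Benjamini-Hochberg adjustment over all of them. The study's methods name DESeq2 (version 1.42.0 here), which was run as an alternative, as were limma 3.58.1 on log2(TPM + 1) and log2(TPM + 0.1), other scalings and filters, experiment number as a block, and leaving out each library. Summary values were compared by exact two-sided permutation over libraries (scipy 1.17.1). Floors were 3 reads per library.

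Genes were named by rule: the 5 with the highest mean share, the leading 3 of each library, the 10 with the smallest p, genes at 3 reads or fewer in both libraries of a group and 30 or more in both of the other, those next to the limit of 10 reads, the closest pair by sequence, and Igkv8-30, Igkv13-85 and Igkv4-63. Among the leading genes, Igkv14-126 stood at 23.4, 5.06, 9.42 and 39.0 CPM and Igkv4-59 at 6.26, 49.3, 8.27 and 23.5 CPM, both with overlap. Depth was 32520709 to 46409700 reads per library. P-values measure the spread between pools.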

Additional observations from a re-analysis of the deposited data

How the results depend on the processing

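The larger Igkv share of all reads kept its direction under each alternative run, with differences of 0.0930 to 0.121 percentage points when a library was left out. The number of Igkv genes past an adjusted p of 0.05 depended on the processing. It was 0 in the edgeR fit, 0 with other size factors, with library sizes without immunoglobulin genes, with 10 or more reads in every library and with limma on TPM, 27 with DESeq2 (0.389% of all genes) and 50 without a filter (0.659%). The DESeq2 count includes genes that reached the count minimum in a single group. The fit without a filter took in the 15 kept genes that the filter had left out. Leaving out a library gave 2 to 53, where the lone library is assumed to vary like the others: 45 without AAV-CTRL 1 (1.85% of all genes), 53 without AAV-CTRL 2 (9.19%), 2 without AAV-mVEGF-C 1 (0.0097%) and 24 without AAV-mVEGF-C 2 (0.284%). At an unadjusted p under 0.05 the count of 37 (2.64% of all genes) became 66 without a filter (3.26%) and 36 to 65 when a library was left out (0.795 to 28.9%). The causes were not tested.

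Under the replicate block by experiment, 5 genes passed: Igkv13-85, Igkv1-117, Igkv8-30, Igkv15-103 and Igkv12-44 (0.0555% of all genes), all 5 also called by DESeq2. Same-numbered libraries deviated with r = -0.134 over genes, so the numbers are not shown to pair them, and the column names of the AAV-CTRL libraries disagree with the numbers. Crossing the numbers, a setting added once the data had been seen, gave 20 (0.273% of all genes).

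The difference in effective number of genes, 6.67, ran from -2.31 to 15.6 when a library was left out and was below 0 without AAV-mVEGF-C 1. The difference in genes detected, 7, ran from -2 to 16 and was below 0 without AAV-CTRL 1. The median Igkv log2 fold change of 2.04 ran from 1.12 to 2.37 when a library was left out, and the lambda list median of 0.86 from 0.37 to 1.25. The Igkc log2 fold change ran from 1.21 to 1.81, and the recombination and pre-B median from -1.82 to 0.33. Restricting to genes without shared stretches or with whole values or to those over the count minimum in both groups, leaving out leading genes, and leaving out libraries for the gene lists were also chosen after seeing the data. With 2 pools per group, exact tests could not reach 0.05.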
